A study of Mus musculus with 11 samples.

Results

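BCR/ABL-transformed Kit+ bone marrow cells from mice labelled as lacking both c-Fos and Dusp1 were treated with imatinib, and their RNA was set against that of BCR/ABL cells from wild-type mice given the same drug. The comparison holds 1 library labelled c-Fos-/-Dusp1-/- with imatinib (the labelled-deleted imatinib library) and 2 imatinib libraries, a and b, out of 11 libraries in the series. It covers the 10434 autosomal genes, of 23444 in the deposited table, that had at least 1 FPKM in 2 or more of these 3 libraries. FPKM gives the sequenced fragments of a gene per kilobase of its transcript after correction for depth. With 1 library on the labelled-deleted side there is no replicate check of a difference and no p-value.

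All samples are labelled C57BL/6. Marrow cells were selected with CD117 (Kit) beads, grown with IL-3, IL-6, FLT3 and mSCF, transduced with a BCR/ABL-IRES-YFP virus and sorted, and the drug was given for 4 h. The labelled-deleted mice are given as ROSACreERT2c-Fosfl/flDusp1-/-, and the 2 imatinib libraries come from WT mice. CreERT2 driven from the ROSA locus is a recombinase that a tamoxifen-type inducer switches on in most cell types. Whether and when it was induced, and how many animals stand behind a library, are not given in the sources used here. Duplicates are not said to come from separate animals, so the spread between libraries a and b may be technical. Besides these libraries, an untreated library labelled c-Fos-/-Dusp1-/- BCR/ABL, 2 untreated BCR/ABL libraries and 2 libraries with imatinib, DFC and BCI are used. The series asks whether chemical inhibitors of FOS and Dusp1 act as genetic loss of the genes does.

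BCR/ABL is the fusion kinase of chronic myeloid leukaemia, and imatinib blocks its activity. c-Fos pairs with JUN proteins to form AP-1, a transcription factor that binds TGANTCA sites and is induced within minutes of growth factor signalling. Dusp1 is a phosphatase that switches off the MAP kinases ERK, JNK and p38, and its own transcription is induced by the signal it ends. Both are thus classed as immediate early genes.

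Neither gene was low in the library labelled as deleted for it. Fos (chromosome 12, 85473890 to 85477273, plus strand, GRCm38) had 15.9 FPKM in the labelled-deleted imatinib library, against 6.79 and 7.42 FPKM in the imatinib libraries. Dusp1 (chromosome 17, 26505590 to 26562128, minus strand) stood at 28.1 FPKM there, against 7.56 and 8.63 FPKM with imatinib alone. On the log2(FPKM + 1) scale the differences from the mean of the imatinib libraries were 1.06 for Fos and 1.68 for Dusp1, and neither gene's groups overlapped. The same held without the drug, where Fos had 21.6 FPKM in the labelled-deleted untreated library against 5.09 and 4.81 FPKM in the untreated libraries, and Dusp1 35.7 against 8.22 and 8.46 FPKM. The table holds 1 value per gene and none per exon, so an intact allele and a transcript of the part outside a deletion cannot be told apart. The label is therefore used here only as a name. The noncoding RNA gene of the ROSA locus, Gt(ROSA)26Sor (chromosome 6, 113067428 to 113077333, minus strand), had 4.04 FPKM in the labelled-deleted imatinib library, against 12.3 and 11.7 FPKM with imatinib. It was low in the untreated labelled-deleted library as well, at 3.48 FPKM against 9.84 and 11.3 FPKM. The vector control library had 5.71 FPKM, so a low value of this gene was not limited to the labelled-deleted libraries.

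**Figure D1:**
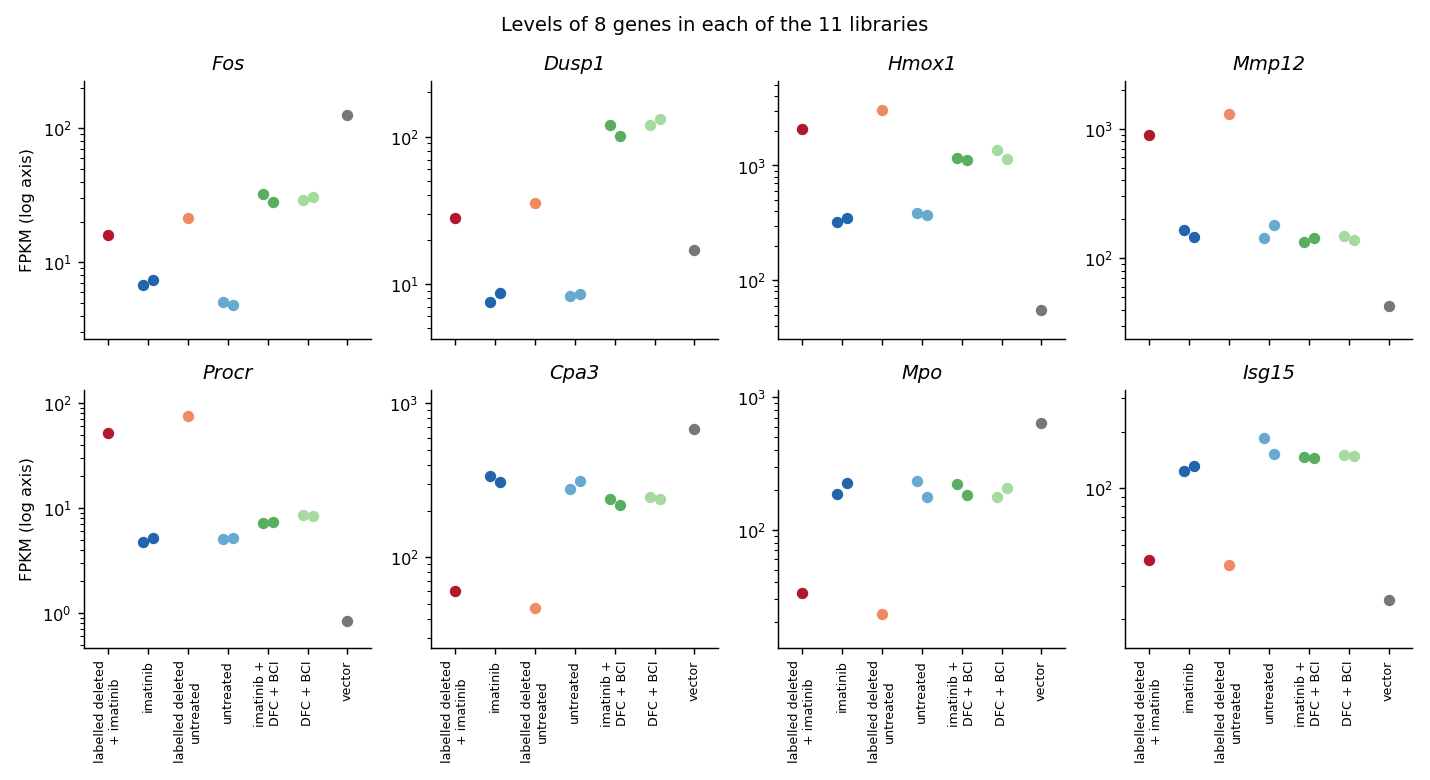
Levels of Fos, Dusp1, Hmox1, Mmp12, Procr, Cpa3, Mpo and Isg15 in FPKM on log axes, 1 point per library, for the 7 groups of the series. Fos and Dusp1 are higher in both labelled-deleted libraries than in the imatinib and untreated libraries, as are Hmox1, Mmp12 and Procr, while Cpa3, Mpo and Isg15 are lower.

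The libraries also differed in sex-linked genes, which the autosomal rule leaves out. Xist, the RNA of the inactive X, had 6.54 FPKM in the labelled-deleted imatinib library, against 65.5 and 65.5 FPKM with imatinib. The Y-linked gene Ddx3y had 13.7 FPKM in the labelled-deleted imatinib library and was listed at 0 in both imatinib libraries. Eif2s3y, also on the Y, had 36.2 FPKM there and was likewise listed at 0 in both. The sex of the source animals and the labelled genotype cannot be told apart in these libraries. As for the cell type, Kit itself was at 8.30 FPKM in the labelled-deleted imatinib library, against 12.4 and 12.0 FPKM with imatinib, and the leukocyte marker Ptprc at 85.9 against 63.5 and 62.8 FPKM. Cd34, a progenitor marker, was at 25.9 FPKM, against 28.3 and 25.4 FPKM. Of the B lymphoid markers, Cd79b had 2.38 FPKM in the labelled-deleted imatinib library, against 2.70 and 2.53 FPKM with imatinib. Blnk, which is no member, had 3.19 FPKM against 0.779 and 0.974 FPKM. The other listed B lymphoid markers found in the matrix, Pax5 among them, were under 1 FPKM in all 3 libraries. FPKM totals were 505838 in the labelled-deleted imatinib library and 489112 and 529427 in the imatinib libraries, and the read depth behind them is unknown.

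A gene was called higher when it had at least 5 FPKM in the labelled-deleted imatinib library and lay at least 1 above each imatinib library on the log2(FPKM + 1) scale. It was called lower when the imatinib libraries averaged at least 5 FPKM and it lay at least 1 below each of them. Of the 10434 genes, 184 (1.76%) were called higher and 140 (1.34%) lower, together 3.11%. After scaling each library by its median ratio the split was 232 higher and 113 lower. Imatinib libraries a and b were at least that far apart, with 5 FPKM in the higher, for 22 genes (0.211%), whereas the labelled-deleted library was that far from library a for 435 genes and from library b for 381. The median difference over all members was -0.08, with 3450 genes above both imatinib libraries and 5386 below both. At 4-fold or more from each library there were 20 genes higher and 26 lower. Just inside the limit lay Pde8a (1.00) and Slc39a14 (1.00) on the higher side and Ddx60 (-1.01) on the lower side, and just outside it lay Galnt6 (0.998) and Perp (-0.99), each as the distance from the nearer library.

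**Figure D2:**
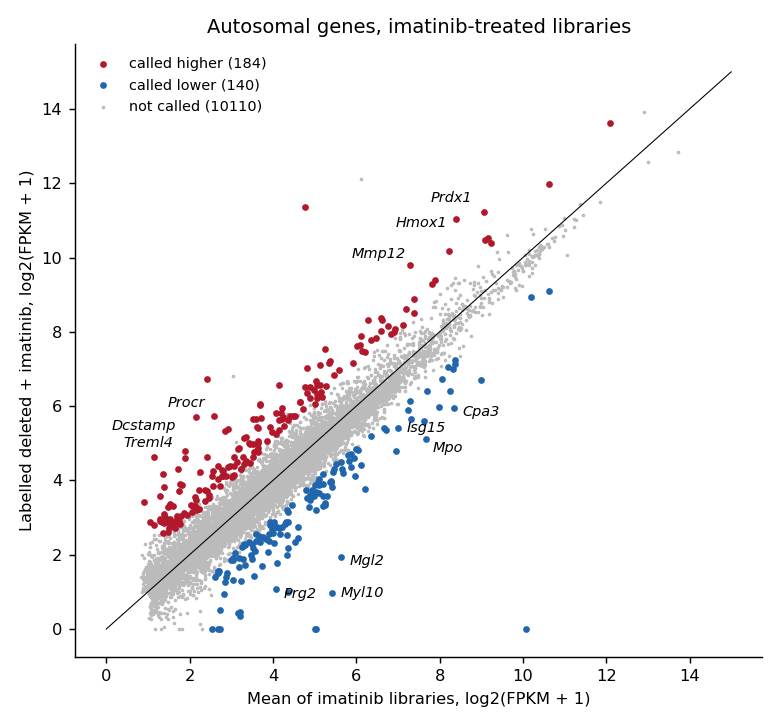
Expression of 10434 autosomal genes, with log2(FPKM + 1) in the labelled-deleted imatinib library on the vertical axis and the mean of the 2 imatinib libraries on the horizontal axis, and a line of equality. The 184 genes called higher are red and the 140 called lower are blue; the point at 0 near 10 on the horizontal axis is the short RNA gene Snord16a.

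The 15 named genes called higher that lay furthest from the nearer imatinib library had a range of roles. Treml4, a myeloid receptor for dying cells, had 23.7 FPKM in the labelled-deleted imatinib library, against 1.18 and 1.26 FPKM with imatinib (difference 3.48). Procr, the endothelial protein C receptor and a marker of blood stem cells, had 52.2 FPKM, against 4.77 and 5.17 FPKM (difference 3.16). Dcstamp, which takes part in fusion of osteoclast precursors, had 26.9 FPKM, against 2.68 and 2.72 FPKM (difference 2.92). In each of these genes both imatinib libraries lay close together. The gap to the labelled-deleted library follows from the way the genes were chosen. Pmp22, a membrane protein known from myelin, stood at 17.1 FPKM against 1.57 and 1.57 FPKM with imatinib. Ednrb, the endothelin B receptor, had 23.2 FPKM against 3.18 and 2.32 FPKM. Npy, a neuropeptide, had 39.5 FPKM, against 6.62 and 5.88 FPKM. Further genes among these 15 were Hmox1 (2.64), Mmp12 (2.52), Akr1b8 (2.60), Tppp3 (2.44), Uchl1 (2.33), a ubiquitin hydrolase, Ear2 (2.47), Emp1 (2.28), Nov (2.37), a matricellular protein, and Gpr137b (2.22), given as differences.

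Mmp12, the macrophage elastase, had 887 FPKM in the labelled-deleted imatinib library, against 164 and 145 FPKM with imatinib (difference 2.52). Mmp19 had 50.2 FPKM against 12.7 and 11.7 FPKM. Of 7 matrix metalloproteinase genes among the members 3 were called higher (Mmp12, Mmp14, Mmp19) and 0 lower. That is 42.9% of them, beside 1.76% of all members called higher, in a family chosen after the values were seen. The list of genes linked to AP-1 in the literature, which held 18 members, was divided: Spp1, Cd44 and Lgals3 were called higher, and Il6, Vegfa and Il2ra lower, with a median difference of 0.10, or 0.18 after median ratio scaling. Spp1, the matrix phosphoprotein osteopontin, had 1472 FPKM against 568 and 571 FPKM with imatinib. Cd44, the hyaluronan receptor, had 178 FPKM against 69.0 and 69.8 FPKM. Both were called, so a gap to each imatinib library is given by the rule.

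Promoter windows of genes with an AP-1 site, TGANTCA on either strand, are shown for Mmp12 and Procr, which were called higher, and for Il6, which was called lower. They were chosen after the values were seen, as examples of a site present on both sides. The windows run from 250 bases before to 50 bases after the annotated start in RefSeq, GRCm38.p6, in the direction of transcription, with the match in capitals. Mmp12 lies at chr9:7347124-7347423, plus strand, Procr at chr2:155750967-155751266, plus strand and Il6 at chr5:30012864-30013163, plus strand.
Mmp12: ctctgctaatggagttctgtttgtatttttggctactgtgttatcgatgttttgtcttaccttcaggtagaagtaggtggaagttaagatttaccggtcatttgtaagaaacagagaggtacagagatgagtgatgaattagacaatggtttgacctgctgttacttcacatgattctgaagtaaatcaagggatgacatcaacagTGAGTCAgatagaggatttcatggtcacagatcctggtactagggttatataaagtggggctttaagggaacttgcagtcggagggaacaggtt
Procr: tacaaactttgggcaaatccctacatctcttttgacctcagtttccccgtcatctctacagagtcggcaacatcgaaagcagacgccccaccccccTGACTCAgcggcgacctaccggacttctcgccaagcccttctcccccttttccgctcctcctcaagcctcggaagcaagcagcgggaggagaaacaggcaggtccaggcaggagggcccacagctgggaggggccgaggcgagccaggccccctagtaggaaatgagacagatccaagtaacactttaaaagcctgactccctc
Il6: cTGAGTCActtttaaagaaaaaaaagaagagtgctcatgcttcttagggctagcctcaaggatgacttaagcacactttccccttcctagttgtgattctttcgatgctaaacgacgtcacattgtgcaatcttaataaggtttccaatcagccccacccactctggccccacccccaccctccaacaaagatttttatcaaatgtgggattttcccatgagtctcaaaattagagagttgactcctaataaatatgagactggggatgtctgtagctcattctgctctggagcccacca
Counted from the annotated start, the match begins at -44 in Mmp12, at -154 in Procr and at -249 in Il6. Of 181 windows of genes called higher, 12.2% held the site, and of 119 windows of genes called lower, 11.8%. The share was 5.25% among 10133 windows of all members and 7.84% among 31396 autosomal windows. A match of these letters is a description of the sequence and not evidence of binding.

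Genes of the oxidant response, which the factor NRF2 switches on through antioxidant response elements, were called higher together with genes of iron and haem handling. Of 22 NRF2 target genes among the members, 8 were called higher and 0 lower, beside 1.76% of all members called higher. Above both imatinib libraries lay 21 of them, beside 33.1% of all members. The median difference was 0.86, beside -0.08 over all members. Hmox1, the enzyme that splits haem, had 2098 FPKM in the labelled-deleted imatinib library, against 321 and 349 FPKM with imatinib (difference 2.64). Prdx1, a peroxide-reducing enzyme, had 2410.3 FPKM, against 561 and 515 FPKM (difference 2.16). These 2 genes were already abundant with imatinib and differed from it by more than 4-fold. Slc7a11, the cystine carrier that feeds glutathione synthesis, had 90.4 FPKM against 26.2 and 26.6 FPKM with imatinib. Nqo1, a quinone reductase, had 80.0 FPKM against 28.5 and 25.7 FPKM. Gclm (1.40), Srxn1 (1.43), Gstm1 (1.43) and Fth1 (1.53) were the other called members by their differences, while Gclc, which encodes the catalytic subunit of the same ligase as Gclm, was not called at 0.79.

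For iron and haem, 4 of 15 genes were called higher and 0 lower, beside 1.76% of all members called higher. The median difference was 0.42. Of the 4 called, Hmox1 and Fth1 belong to the NRF2 list too. Fth1, the ferritin heavy chain, had 12630.3 FPKM in the labelled-deleted imatinib library, against 4315 and 4440.3 FPKM with imatinib. Slc11a1, the metal pump of macrophage phagosomes, had 49.2 FPKM against 10.1 and 10.8 FPKM. Blvrb, a biliverdin reductase that acts after haem breakdown, had 143 FPKM against 34.8 and 45.7 FPKM. All 3 lay clear of both imatinib libraries, as the call requires. Ftl1, the ferritin light chain, was at 15572 FPKM against 7129 and 8328 FPKM with imatinib and missed the call against library b. Genes outside the lists included Ptgr1, an aldehyde and prostaglandin reductase, at 129 FPKM against 27.8 and 26.7 FPKM, and Cbr3, a carbonyl reductase, at 13.9 against 2.34 and 2.48 FPKM.

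The promoter of Prdx1 (chr4:116685349-116685648, plus strand) shows an antioxidant response element core, TGACNNNGC on either strand, in the same window.
Prdx1: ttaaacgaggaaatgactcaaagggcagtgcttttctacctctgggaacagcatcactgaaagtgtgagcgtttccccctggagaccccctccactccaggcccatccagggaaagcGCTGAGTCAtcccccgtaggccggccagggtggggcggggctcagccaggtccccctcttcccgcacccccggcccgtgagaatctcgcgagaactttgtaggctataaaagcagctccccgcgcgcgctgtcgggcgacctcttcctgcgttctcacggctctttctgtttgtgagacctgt
The match, in capitals, begins at -133 from the gene's start and lies on the strand opposite to transcription. It overlaps an AP-1 site, as happens in 0.455% of autosomal windows. The AP-1 site shown above for Procr overlaps such a core too, which is not marked there. An antioxidant response element core was found in 7 of 24 windows of the NRF2 list (29.2%). The share was 14.4% among windows of genes called higher and 21.8% among those of genes called lower. It was 14.8% among windows of all members and 12.5% among all autosomal windows.

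Macrophage genes were mostly higher in the labelled-deleted imatinib library. Of 23 monocyte and macrophage markers among the members, 16 lay above both imatinib libraries, beside 33.1% of all members. Called higher were 5 (Cd14, Lyz2, Marco, Mpeg1 and Cd9) and called lower 2, beside 1.76% and 1.34% of all members. The median difference was 0.72. Cd14, the co-receptor for bacterial lipopolysaccharide, had 138 FPKM, against 32.2 and 35.4 FPKM with imatinib. Lyz2, lysozyme, had 4015 FPKM against 1604 and 1566 FPKM, and Marco, a scavenger receptor, 9.36 against 1.69 and 2.10 FPKM. The members called lower are chains of complement C1q, which tissue macrophages make. C1qb had 8.89 FPKM in the labelled-deleted imatinib library against 32.7 and 39.3 FPKM with imatinib, and C1qc 6.03 against 15.8 and 22.1 FPKM. Csf1r, the receptor of the macrophage growth factor, had 128 FPKM against 62.4 and 67.3 FPKM and was not called (difference 0.97). The summed level of the listed markers was 7172 FPKM against 3978 and 4023 FPKM with imatinib. Lyz2, also counted below as a late neutrophil marker, made up much of it, and without Lyz2 the sum was 3157 FPKM against 2374 and 2457 FPKM. Cd9, also counted below as a megakaryocyte and platelet marker, makes up part of the difference that remains. In bulk RNA, more cells of a type and more RNA per cell cannot be told apart.

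Of 17 C-type lectin genes, whose products on myeloid cells bind microbial sugars, 3 were called higher and 1 lower. That is 23.5% of them, beside 3.11% of all members, in a family chosen after the values were seen. Clec4n (Dectin-2) had 1155 FPKM in the labelled-deleted imatinib library against 309 and 288 FPKM with imatinib, Clec4d 316 against 78.7 and 76.0 FPKM, and Clec7a (Dectin-1) 236 against 70.3 and 65.4 FPKM. Clec10a was the 1 called lower, and its paralog Mgl2, which has another form of name, was lower too, at 2.81 FPKM against 52.3 and 45.8 FPKM. Outside the lists, and chosen after their values were seen, Cd36, a fatty acid and lipoprotein receptor, had 90.2 FPKM against 29.0 and 28.4 FPKM, and Lipa, the acid lipase of the lysosome, 196 against 65.2 and 62.7 FPKM, both being called higher. Of 12 cathepsin genes, a family chosen likewise, 10 lay above both imatinib libraries, beside 33.1% of all members. Ctsk was called higher (7.03 FPKM, against 1.804 and 1.54 FPKM), and Ctsg, a neutrophil granule protease described with the granule genes, was called lower.

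**Figure D3:**
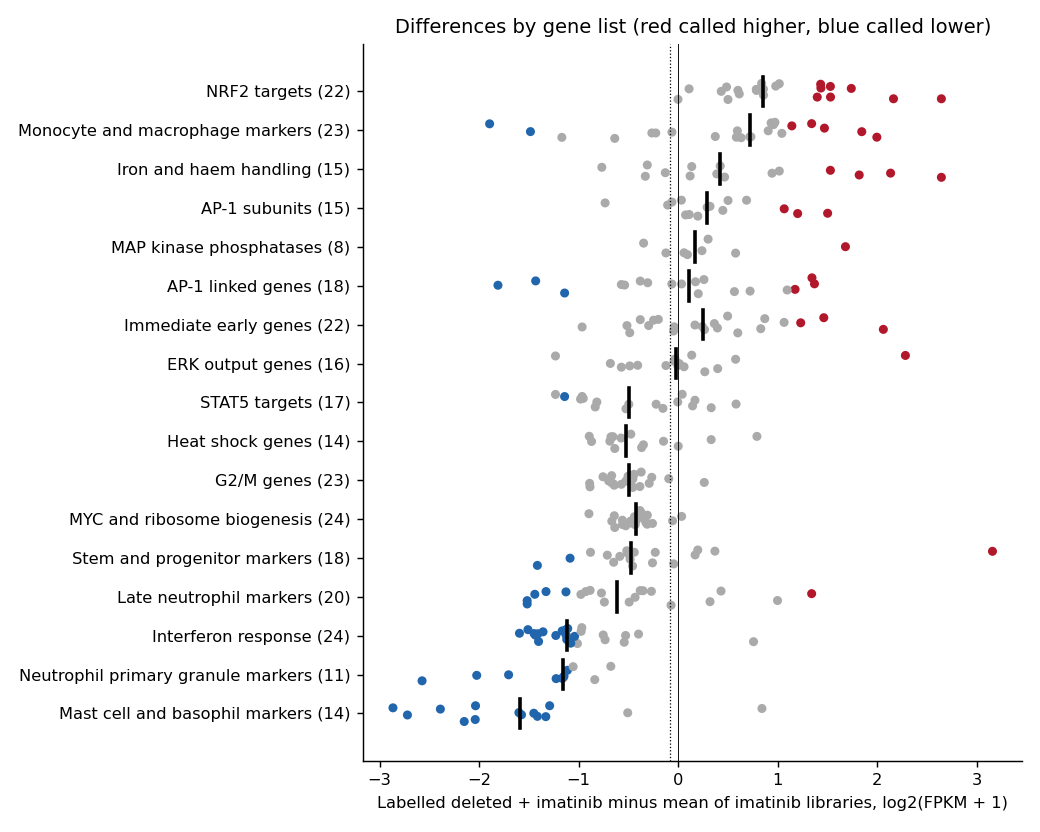
Differences between the labelled-deleted imatinib library and the mean of the imatinib libraries on the log2(FPKM + 1) scale, 1 point per gene, for 17 gene lists with the number of members in brackets. Black bars mark list medians, from 0.86 for NRF2 targets to -1.59 for mast cell and basophil markers, and the dotted line marks the median over all members, -0.08.

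Interferon response genes were lower as a group. Of 24 such genes among the members, 15 were called lower and 0 higher, beside 1.34% of all members called lower. Below both imatinib libraries lay 23 of them, beside 51.6% of all members. The median difference was -1.12. Isg15, a ubiquitin-like modifier, had 41.5 FPKM in the labelled-deleted imatinib library, against 124 and 132 FPKM with imatinib (difference -1.60). Oasl2, an oligoadenylate synthetase-like protein, had 19.4 FPKM against 60.5 and 54.1 FPKM, and Ifit2, which binds viral RNA, 6.29 against 20.6 and 17.3 FPKM. Gbp2, a guanylate-binding protein, had 14.6 FPKM against 43.5 and 39.2 FPKM. For all 4 the imatinib libraries lay close to each other, and the gap to the labelled-deleted library is what the call requires. Irf7, a factor that amplifies the response, was not called (44.8 against 81.7 and 97.2 FPKM).

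GTPases that interferon gamma induces showed the same direction. All 7 immunity-related GTPase genes among the members were called lower, as were 6 of 8 guanylate-binding protein genes, beside 1.34% of all members. Both families were chosen after the values were seen. Irgm1 had 20.4 FPKM in the labelled-deleted imatinib library, against 72.1 and 65.3 FPKM with imatinib. Igtp had 9.53 FPKM against 38.7 and 34.8 FPKM, and Gbp4 0.904 against 6.16 and 6.06 FPKM. The family medians were -1.84 and -1.42. Cmpk2, a nucleotide kinase next to Rsad2 in the genome, had 9.13 FPKM against 37.9 and 36.4 FPKM. The listed class I and II antigen presentation genes, which interferon also raises, had 0 of 16 members called, with B2m at 2064 FPKM against 2566 and 2427 FPKM. Their median difference was -0.12, and -0.24 without imatinib library a, -0.042 without library b and -0.035 after median ratio scaling. Among 23 genes with H2 symbols, a wider set chosen after the values were seen, H2-Q8, H2-Q9 and H2-T23 were called lower and H2-T10 higher. That is 17.4% called, beside 3.11% of all members. Of these 23 genes 17 lay below both imatinib libraries, with a median of -0.32.

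The core of the interferon response element, here a pair of GAAA runs with any 2 bases between them on either strand, is shown in the promoter windows of Isg15 (chr4:156200769-156201068, minus strand), Rsad2 (chr12:26456403-26456702, minus strand) and Gbp2 (chr3:142620413-142620712, plus strand), all of them called lower.
Isg15: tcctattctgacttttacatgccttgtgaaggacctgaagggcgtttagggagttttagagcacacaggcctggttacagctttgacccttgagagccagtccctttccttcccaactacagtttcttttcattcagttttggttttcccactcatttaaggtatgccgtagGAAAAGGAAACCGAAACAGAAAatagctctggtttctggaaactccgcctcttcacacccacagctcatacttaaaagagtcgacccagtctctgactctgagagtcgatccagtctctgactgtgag
Rsad2: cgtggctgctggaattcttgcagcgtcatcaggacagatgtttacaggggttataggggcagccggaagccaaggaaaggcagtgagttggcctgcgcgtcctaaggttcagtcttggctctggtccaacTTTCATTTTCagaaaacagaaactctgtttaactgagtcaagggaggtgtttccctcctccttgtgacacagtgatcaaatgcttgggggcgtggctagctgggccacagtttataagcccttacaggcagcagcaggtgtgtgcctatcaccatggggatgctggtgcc
Gbp2: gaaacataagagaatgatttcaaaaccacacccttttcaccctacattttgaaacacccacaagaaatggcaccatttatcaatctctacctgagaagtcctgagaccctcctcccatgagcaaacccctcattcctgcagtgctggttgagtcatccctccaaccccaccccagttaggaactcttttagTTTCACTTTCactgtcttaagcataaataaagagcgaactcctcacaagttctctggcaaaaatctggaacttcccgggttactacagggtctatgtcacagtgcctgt
Isg15 holds 3 overlapping matches, which appear as 1 run of capitals. Rsad2 holds 1 match at -120 from its start and Gbp2 1 at -59, both on the strand opposite to transcription. The windows of Rsad2 and Gbp2 also hold an AP-1 site, which is left in small letters. The core was present in 11 of 22 windows of the interferon list and in 19.3% of windows of genes called lower. It was present in 4.42% of windows of genes called higher, 3.26% of members' windows and 3.46% of all autosomal windows.

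Mast cell and basophil genes gave the lowest list median. Of 14 members 12 were called lower and 0 higher, beside 1.34% of all members called lower. Below both imatinib libraries lay 13 and above both 1, with a median of -1.59. Of the listed markers outside the filter, Tpsab1 went the other way, at 2.74 FPKM against 0.256 and 0.341 FPKM with imatinib. Mcpt4, likewise outside the filter, was under 1 FPKM in all 3 libraries. Cpa3, the carboxypeptidase of mast cell granules, had 60.6 FPKM in the labelled-deleted imatinib library, against 336 and 309 FPKM with imatinib (difference -2.39). Hdc, which makes histamine, had 26.7 FPKM against 119 and 125 FPKM (difference -2.15). Prss34 and Tpsb2, serine proteases of basophils and mast cells, were at 0.266 and 0.352 FPKM in the labelled-deleted imatinib library, against 7.83 and 8.67 FPKM for Prss34 and 7.74 and 8.10 FPKM for Tpsb2 with imatinib. Gata2, the transcription factor of this lineage, had 14.5 FPKM against 36.9 and 44.4 FPKM, and the IL-33 receptor Il1rl1 11.6 against 34.3 and 32.5 FPKM. The listed markers summed to 329 FPKM in the labelled-deleted imatinib library and to 1168 and 1112 FPKM with imatinib. A smaller share of such cells cannot be told apart from less of this RNA per cell. The eosinophil granule gene Prg2 was lower as well, at 1.11 FPKM against 15.6 and 15.8 FPKM, whereas Ear2, an eosinophil and macrophage ribonuclease, was higher at 40.6 against 7.59 and 5.58 FPKM.

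Genes of the promyelocyte stage, when neutrophil precursors fill their first granules, were lower too. Of 11 primary granule markers 7 were called lower and 0 higher, beside 1.34% of all members called lower. All 11 lay below both imatinib libraries, beside 51.6% of all members, and the median was -1.15. Mpo, myeloperoxidase, had 33.5 FPKM in the labelled-deleted imatinib library, against 186 and 225 FPKM with imatinib (difference -2.57). Elane, neutrophil elastase, had 61.5 FPKM against 216 and 297 FPKM, and Ctsg, cathepsin G, 139 against 321 and 334 FPKM. Gfi1, a repressor needed for neutrophil development, had 4.01 FPKM against 15.3 and 15.4 FPKM. As called genes, these lay at least 2-fold below each imatinib library on the log2(FPKM + 1) scale by the rule. Of 20 late neutrophil markers, 5 were called lower, among them Chil3 (549 against 1660.5 and 1493 FPKM), Padi4 (14.5 against 36.5 and 46.0 FPKM) and Retnlg (2.18 against 9.49 and 6.93 FPKM). The 1 called higher, Lyz2, is also a macrophage gene, and the median was -0.62.

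Over all members 1.76% were called higher and 1.34% lower, and 51.6% lay below both imatinib libraries. Stem and progenitor markers went both ways. Of 18 members Procr was called higher, and Gata2 and Myb lower, with a median of -0.47. Myb, a transcription factor of immature blood cells, had 20.7 FPKM in the labelled-deleted imatinib library against 46.5 and 43.6 FPKM with imatinib, close enough to the limit that it was not called after median ratio scaling or quantile normalization. Among 17 megakaryocyte and platelet markers Cd9 was higher, at 618 FPKM against 224 and 221 FPKM, and Thbs1 (103 against 482 and 532 FPKM) and Gp5 (4.16 against 11.5 and 10.6 FPKM) were lower. Erythroid markers had 0 of 14 called and a median of -0.40, with Hbb-bt at 163 FPKM against 222 and 195 FPKM. Dendritic cell markers had 2 of 11 called higher, Itgax (13.3 against 5.36 and 5.96 FPKM) and Batf3 (8.99 against 3.51 and 3.20 FPKM), while 7 lay below both imatinib libraries and the median was -0.26. Of 7 T and NK cell markers 6 lay below both imatinib libraries and 1, Il7r, above, with a median of -0.55, or -1.03 at a pseudocount of 0.1. Il7r was called higher at 51.1 FPKM against 17.7 and 17.9 FPKM, and Thy1 lower at 18.8 against 42.8 and 44.0 FPKM.

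Other genes with large negative differences have separate roles. Myl10, a myosin light chain, had 0.94 FPKM in the labelled-deleted imatinib library, against 40.7 and 43.2 FPKM with imatinib (difference -4.47). Klk1b11, a kallikrein, had 1.00 FPKM against 18.4 and 20.96 FPKM, and Itgb2l, an integrin beta chain of granulocytes, 2.97 against 18.6 and 19.8 FPKM. Tgm2, tissue transglutaminase, had 12.7 FPKM against 66.3 and 81.4 FPKM. Members of the kallikrein and ribonuclease T2 families have near copies, so the values of Klk1b11 and of Rnaset2b (0.425 against 5.61 and 5.64 FPKM) depend on how reads were divided between copies. Slc38a10, an amino acid carrier, was listed at 0 in the labelled-deleted imatinib library and had 28.4 and 35.4 FPKM with imatinib. It was listed at 0 in 1 of the 3-drug libraries too and had 27.99 FPKM in the labelled-deleted untreated library, so no fold is given for it. In all 11 members were listed at 0 in the labelled-deleted imatinib library, 7 of them short RNA genes. Of 20 cholesterol and lipid synthesis genes 2 were called lower, beside 1.34% of all members. They were Scd1 and Scd2, the desaturases that make oleic acid. Scd1 had 2.30 FPKM against 9.10 and 8.91 FPKM with imatinib, and Scd2 48.9 against 161 and 154 FPKM. The list median was -0.51.

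Secreted signals and their receptors were mixed. Of 24 cytokine and chemokine genes Cxcl3 was called higher, and Il6, Ccl24, Cxcl10 and Vegfa lower, with a median of -0.22, or -0.13 after median ratio scaling. Il6 had 3.19 FPKM in the labelled-deleted imatinib library, against 13.7 and 13.8 FPKM with imatinib (difference -1.81). Cxcl3, which attracts neutrophils, had 102 FPKM against 30.4 and 33.1 FPKM, and Cxcl10, which interferon induces, 6.41 against 19.4 and 19.99 FPKM. Vegfa, the vascular growth factor, had 4.94 FPKM against 14.6 and 15.4 FPKM. In each of these the single library lay outside the range of both imatinib libraries, as the call requires. Of 14 CC chemokine genes 4 were called lower (Ccl7, Ccl8, Ccl12 and Ccl24) and 0 higher, and Ccl8 stood at 0.373 FPKM against 9.89 and 6.93 FPKM. That is 28.6% of them, beside 1.34% of all members called lower, in a family chosen after the values were seen. Among 22 cytokine receptor genes Il1r1 (8.75 against 1.69 and 1.86 FPKM) and Il7r were called higher, and Il1rl1 and Il2ra (1.94 against 5.66 and 5.32 FPKM) lower.

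Most AP-1 and MAP kinase genes around Fos and Dusp1 were not called. The counts below stand beside 1.76% of all members called higher. Of 15 AP-1 subunit genes 3 were called higher, Fos, Atf3 and Batf3, with a median of 0.29. It was 0.13 when imatinib library a was left out and 0.45 when library b was. Atf3, a stress-induced partner of JUN proteins, had 93.3 FPKM in the labelled-deleted imatinib library, against 31.3 and 33.4 FPKM with imatinib. Jun had 22.9 FPKM against 13.5 and 18.6 FPKM, and Junb 44.9 against 32.6 and 55.6 FPKM. Jun was above both imatinib libraries without meeting the call, and Junb lay between them. Among 8 MAP kinase phosphatase genes Dusp1 was the 1 called, with Dusp5 at 17.2 FPKM against 17.4 and 20.4 FPKM and Dusp6 at 6.83 against 6.43 and 6.62 FPKM. None of 17 genes of the MAP kinase pathway was called. Of 22 immediate early genes Klf4 (13.8 against 2.32 and 2.77 FPKM), Sgk1 (67.8 against 23.1 and 24.96 FPKM) and Plk2 (26.4 against 10.2 and 11.2 FPKM) were called higher and 0 lower, with a median of 0.25. Emp1 was the 1 of 16 ERK output genes that was called, at 185 FPKM against 38.1 and 36.2 FPKM.

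Lists of growth and stress genes had few or no calls. STAT5 targets had a median of -0.50 with 1 of 17 called lower, Il2ra, and the median was -0.72 when imatinib library a was left out and -0.27 when library b was. The 24 genes of MYC and ribosome biogenesis had 0 called and 23 below both imatinib libraries, with a median of -0.43, and Npm1, a nucleolar protein, was at 727 FPKM against 1253 and 1022 FPKM. Of 23 G2/M genes 22 lay below both, with a median of -0.49, and Top2a had 83.7 FPKM against 146 and 138 FPKM. For 22 S phase genes the median was -0.41. Heat shock genes had 0 of 14 called and a median of -0.53, with Hspa8 at 610.2 FPKM against 979 and 946 FPKM, and ATF4 targets 1 of 21, Slc7a11. The median of the ATF4 targets was -0.33, and -0.47 without imatinib library a and -0.20 without library b. Beside the 51.6% of all members that lay below both imatinib libraries, the proliferation lists were nearly all on that side, by amounts under 2-fold. BCL2 family genes had 0 of 17 called, with Mcl1 at 143 FPKM against 132 and 124 FPKM. FOXO targets (16 members) and NF-kB targets (19 members) had 0 called, p53 targets 1 of 21, Plk2, and glycolysis and hypoxia genes 1 of 19, the glucose carrier Slc2a3 at 14.6 FPKM against 33.3 and 32.9 FPKM. Of 27 cytoplasmic ribosomal protein genes 0 were called and 25 lay below both imatinib libraries, with a median of -0.27.

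Untreated cells allow the same comparison in libraries that share none with it. Of 10383 genes there, 351 (3.38%) were called higher and 220 (2.12%) lower in the labelled-deleted untreated library. Among the 184 genes called higher with imatinib, 164 were called higher untreated, which is 89.1% of the 184 and 46.7% of the 351. Among the 140 called lower with imatinib, 116 were called lower untreated, 82.9% of the 140 and 52.7% of the 220. No gene was called in opposite directions. The 2 comparisons are separate as libraries, and whether they are separate as animals is not given. Xist had 6.00 FPKM in the labelled-deleted untreated library against 47.4 and 61.1 FPKM in the untreated libraries. Sex and labelled genotype thus coincide here as well, so the shared calls do not tell them apart. Hmox1 had 3021 FPKM in the labelled-deleted untreated library against 389 and 374 FPKM in the untreated libraries, Cpa3 46.5 against 276 and 313 FPKM, and Isg15 38.8 against 186 and 152 FPKM. These are the directions seen with the drug. Differences tended to be smaller with imatinib: 152 of the 184 genes called higher and 95 of the 140 called lower had a smaller absolute difference than untreated, the medians being 1.42 with imatinib against 1.73 untreated and -1.41 against -1.55. The genes were called on the imatinib values, so this count has no test.

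**Figure D4:**
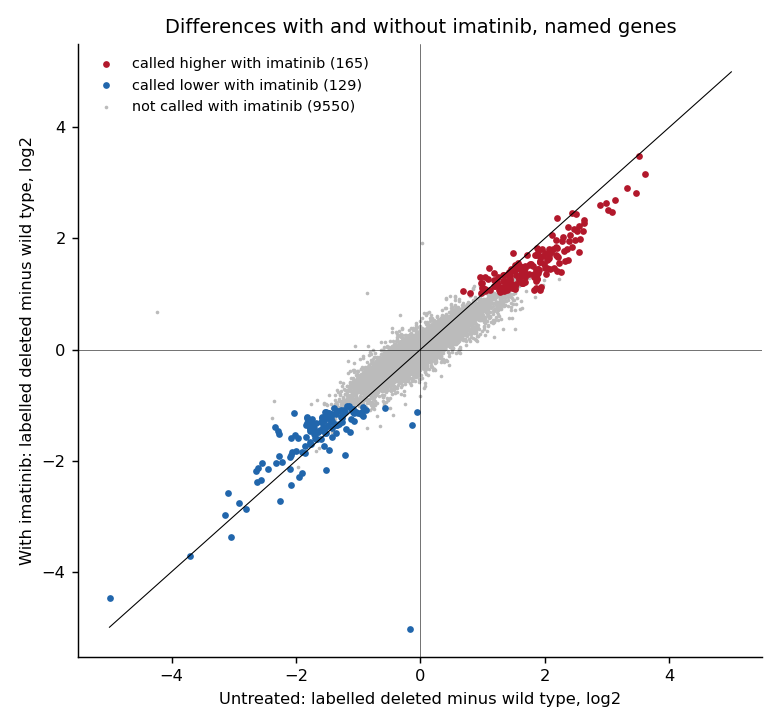
Labelled-deleted minus wild-type difference on the log2(FPKM + 1) scale for named genes, with imatinib on the vertical axis and untreated on the horizontal axis, and a line of equality. Most of the 165 named genes called higher with imatinib (red) lie to the right of the line, and the 129 called lower (blue) share the negative side, with Slc38a10 alone at the bottom centre.

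Several genes met the call either with or without imatinib. Ccl7, a monocyte attractant, had 40.0 FPKM in the labelled-deleted imatinib library against 109.9 and 98.7 FPKM with imatinib, and 136 against 135 and 164 FPKM untreated. Cebpb, a transcription factor of macrophages, had 117 FPKM against 98.7 and 102 FPKM with imatinib, and 242 against 108 and 104 FPKM untreated. Jun met the call untreated and not with imatinib, at 41.0 against 18.9 and 16.3 FPKM, and Apoe, a lipid carrier of macrophages, at 31.4 against 11.2 and 8.48 FPKM. With imatinib Apoe stood at 16.3 against 7.80 and 11.3 FPKM. The monocyte and macrophage list had a median difference of 1.20 untreated and 0.72 with imatinib, and the MYC and ribosome biogenesis list -0.88 and -0.43. With 1 labelled-deleted library per condition, these changes between conditions were not tested.

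The response to imatinib itself, treated minus untreated, can be set side by side in both genotypes. Cish, a feedback inhibitor that STAT5 switches on, had 8.08 FPKM with imatinib against 50.6 FPKM untreated in labelled-deleted cells, and 13.7 and 16.4 against 88.3 and 68.7 FPKM in wild-type cells. Myc had 6.76 against 35.7 FPKM in labelled-deleted cells, and 13.3 and 15.02 against 80.9 and 73.9 FPKM in wild-type cells. On the log2(FPKM + 1) scale the response of Cish was -2.51 in labelled-deleted and -2.30 in wild-type cells, and that of Myc -2.24 in labelled-deleted and -2.37 in wild-type cells. Socs1, another STAT5-induced inhibitor, responded by -2.08 in labelled-deleted and -2.14 in wild-type cells, and the kinase gene Pim1 by -1.29 and -1.54 likewise. Bcl6, a repressor that STAT5 holds down, was higher with the drug, by 1.26 in labelled-deleted and 1.56 in wild-type cells. Drug-treated and untreated values did not overlap for these genes in wild-type cells, and the labelled-deleted pair showed the same order.

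Other responses differed in size. Osm, a STAT5-induced cytokine, had 11.6 against 28.6 FPKM in labelled-deleted cells, and 12.4 and 13.7 against 59.96 and 51.3 FPKM in wild-type cells, so its response was -1.24 in labelled-deleted and -2.01 in wild-type cells. Lif, a related cytokine, had 1.06 against 2.64 FPKM in labelled-deleted cells, and 3.99 and 3.68 against 19.0 and 17.3 FPKM in wild-type cells. Fos stood at 15.9 against 21.6 FPKM in labelled-deleted cells and at 6.79 and 7.42 against 5.09 and 4.81 FPKM in wild-type cells, so the order was opposite. List medians of the response were -0.82 and -0.76 for STAT5 targets and -0.53 and -0.62 for ERK output genes in labelled-deleted and wild-type cells. For MYC and ribosome biogenesis they were 0.14 and -0.24, for G2/M genes 0.29 and 0.04, and for monocyte and macrophage markers -0.46 and -0.05. Over all members the medians were 0.05 and -0.01. Between the labelled-deleted imatinib and untreated libraries 33 genes were at least 2-fold apart with 5 FPKM in the higher, and 35 to 55 between an imatinib and an untreated wild-type library. The difference between responses has no replicate check in labelled-deleted cells.

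**Figure D5:**
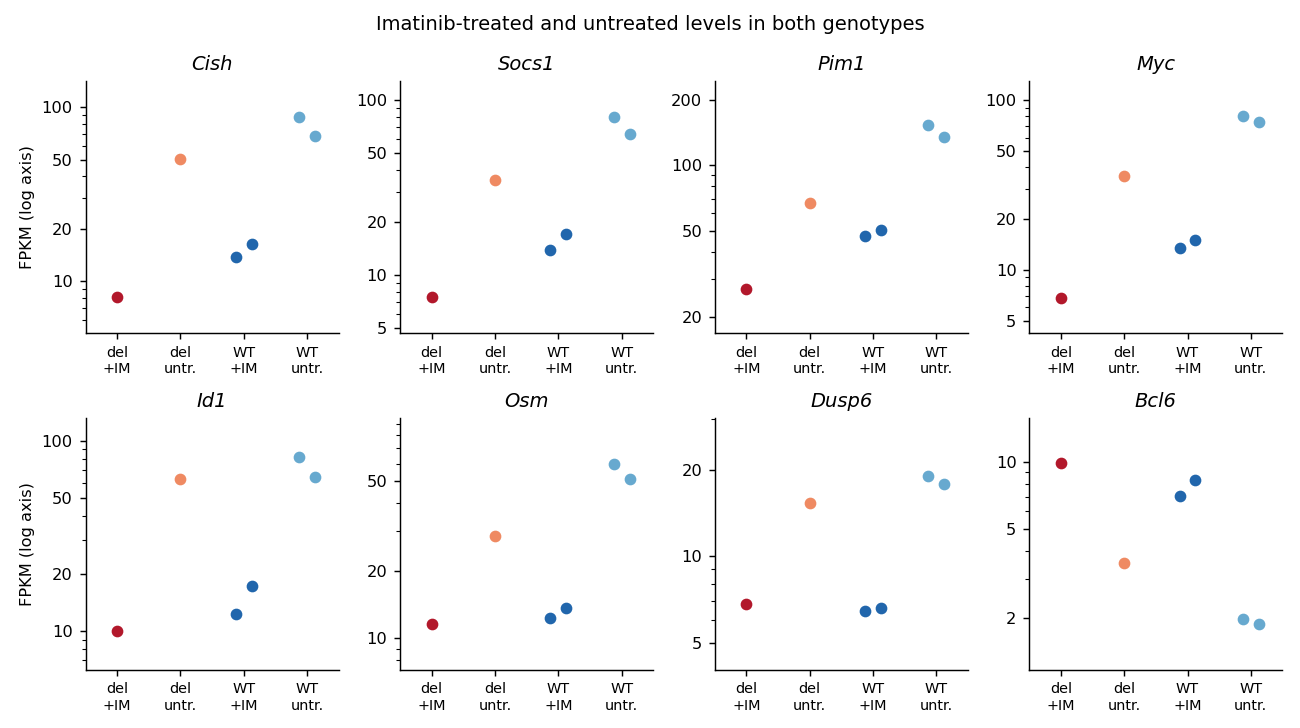
Levels of Cish, Socs1, Pim1, Myc, Id1, Osm, Dusp6 and Bcl6 in FPKM on log axes in imatinib-treated (+IM) and untreated (untr.) cells labelled deleted (del) and wild type (WT), 1 point per library. All but Bcl6 are lower with imatinib in both genotypes, Cish at 8.08 against 50.6 FPKM in labelled-deleted cells, for example.

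The 3-drug libraries, imatinib with DFC and BCI, share their imatinib reference with the comparison above, so values are given only side by side. Fos had 15.9 FPKM in the labelled-deleted imatinib library, 32.4 and 27.99 FPKM with the 3 drugs, and 6.79 and 7.42 FPKM with imatinib. Dusp1 had 28.1 FPKM, 120.1 and 102 FPKM, and 7.56 and 8.63 FPKM in the same order. Hmox1 stood at 2098 FPKM, 1165 and 1122 FPKM, and 321 and 349 FPKM. All 3 genes were above imatinib in both settings. Prdx1 had 2410.3 FPKM in the labelled-deleted imatinib library, 383 and 428 FPKM with the 3 drugs, and 561 and 515 FPKM with imatinib. Mmp12 had 887 FPKM, 133 and 142 FPKM, and 164 and 145 FPKM, and Vegfa 4.94 FPKM, 48.9 and 47.2 FPKM, and 14.6 and 15.4 FPKM. Hspa1a, an inducible heat shock gene that is no member, had 0.625 FPKM, 305.7 and 238.9 FPKM, and 0.206 and 0.198 FPKM. These 4 genes were far from imatinib in 1 setting and near it, or on the other side, in the other. List medians against imatinib were 0.86 in the labelled-deleted library and 0.10 with the 3 drugs for NRF2 targets, -1.12 and -0.13 for the interferon response, 0.25 and 1.30 for immediate early genes, and -0.53 and 0.74 for heat shock genes.

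Near the labelled loci the share of genes called was close to that over all members, and it rests on few called genes. Within 1 Mb on each side, 0 of 19 members near Fos, 0 of 40 near Dusp1 and 0 of 21 near Gt(ROSA)26Sor were called, leaving out the gene itself. Windows of that size hold too few members for a count of 0 to be read as a lack of calls. Within 5 Mb the shares called were 1.72%, 3.14% and 2.13%, beside 3.11% over all members. Within 10 Mb they were 2.11%, 3% and 4.94% in the same order. The 5 called within 5 Mb of Dusp1 were Snora64, Snora78, Prss34, Tpsb2 and Rab44, so the protease genes Prss34 and Tpsb2 lie on the chromosome segment around the labelled Dusp1 allele.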

How the data were processed

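RNA was sequenced from stranded mRNA libraries, per the labels' protocols. The submitters' processing notes name TopHat, Cufflinks and the build mm10; versions, annotation and the strand setting are not given in the sources used here. The deposited values were taken as FPKM, from the form in which Cufflinks writes them, since the file header names no unit. The table gives no read numbers, hence depth is unknown, no counting interval is given, and an exact 0 can be a failed estimate. Near-identical copies and overlapping genes may have shared reads.

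Groups come from the sample titles, with 0 columns left without a group. The columns headed a and b name a group but not which numbered sample. No rescaling was applied, and comparisons were made on log2(FPKM + 1), a scale that understates differences of low genes. The difference is the labelled-deleted library minus the mean of 2 imatinib libraries, and the call needs 2-fold against each. Of 10817 rows past the filter of 1 FPKM, 328 on X and 55 with no single chromosome were left out. The symbols of 27 rows read as dates, and 18 of these passed the filter. Positions are from GENCODE vM21 and RefSeq on the files' build; 7965 of 10434 members matched a RefSeq promoter, some with more than 1 window.

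The text names Fos and Dusp1, the 15 named genes furthest from the nearer imatinib library on each side, and from each list at most 4 of the genes called, or the 2 most abundant where none was. Other genes, the symbol families and the promoters were chosen after their values were seen, and some genes the rule takes are not reported here. The members and the 37 gene lists were chosen with earlier results of these data known. Predicted genes, pseudogenes and short RNA genes were counted and mostly not named (12 and 7 of those called higher, 5 and 6 of those called lower). Motifs were searched on both strands. The call was tested on simulated data. Python 3.11.15, numpy 2.4.6 and pandas 2.3.3 were used. Alternatives were another pseudocount, median ratio and quantile scaling, other filters and fold limits, and leaving out each imatinib or untreated library; leaving out unnamed genes was added after seeing the data.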

Additional observations from a re-analysis of the deposited data

Results flagged for a closer look

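Genes of the Y chromosome, which the autosomal rule leaves out, gave a signal in the labelled-deleted imatinib library that the imatinib libraries lacked. Ddx3y, an RNA helicase, had 13.7 FPKM there, Eif2s3y, a translation initiation factor subunit, 36.2 FPKM, Kdm5d, a histone demethylase, 4.71 FPKM, and Uty, another demethylase, 4.13 FPKM. In imatinib library a all 4 were listed at 0, and in library b 3 were, with Uty at 0.00747 FPKM. The labelled-deleted untreated library showed them too, at 14.4, 35.1, 4.28 and 4.48 FPKM. The part of the sex of the source animals in the autosomal differences was not tested. In the other 9 libraries these genes were at 0 or at most at 0.0252 FPKM (Eif2s3y in untreated library a).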

How the results depend on the processing

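Directions of the calls, of Fos and Dusp1 and of the 6 lists NRF2, monocyte and macrophage, interferon, mast cell and basophil, primary granule and STAT5 were kept in the alternatives run for each. At 1.5-fold in place of 2-fold, 505 genes were called higher and 451 lower, of which 468 and 392 were called likewise untreated. Without imatinib library a or b, 206 and 260 genes were called higher and 175 and 175 lower. Fos differed by 1.15 after median ratio scaling and 1.16 with a pseudocount of 0.1 FPKM. After median ratio scaling the medians were -1.03 for the interferon, 0.81 for the monocyte and macrophage, 0.94 for the NRF2 and -1.06 for the primary granule list. Quantile normalization gave -1.05, 0.80 and 0.92 for the first 3 of these. A pseudocount of 0.1 gave -1.19 for the interferon, -1.72 for the mast cell and 0.96 for the NRF2 list. Leaving out 1 imatinib library gave -1.09 to -1.08 for the interferon, 0.65 to 0.68 for the monocyte and macrophage, 0.81 to 0.96 for the NRF2, -1.25 to -1.13 for the primary granule and -0.72 to -0.27 for the STAT5 list. The cause was not tested. Of 505 values of 101 named genes, 364 stayed within the spread of the imatinib libraries, 141 moved and 3 changed sign, all of Txnip. Gene values with 1 imatinib library left out stay within that spread by construction. Of 155 medians of 31 other lists 51 moved and 7 changed sign, in the lists of the MAP kinase pathway, ERK output genes, FOXO targets and NF-kB targets, so no direction is given for these. Of 78 named called genes 77 kept the call in all 5 settings, and Myb lost it under median ratio scaling and quantile normalization. The other settings could not bring a called gene nearer than the limit. The call already needs 2-fold against each imatinib library, and a smaller pseudocount only widens a difference. The median over all members was -0.08, and -0.004 after median ratio scaling. No paired analysis was possible because the columns carry no replicate numbers, the labelled-deleted group has 1 library and no test was made.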

Other observations

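The filter of 1 FPKM in 2 of 3 libraries leaves out genes present in the labelled-deleted library alone. There were 16 such autosomal genes with at least 5 FPKM there, 5 of them named genes. Ear10 and Ear1, ribonucleases of eosinophils and macrophages with close copies, had 13.8 and 9.04 FPKM in the labelled-deleted imatinib library. With imatinib Ear10 was listed at 0 in both libraries and Ear1 had 0.118 and 0.112 FPKM. Ear2, a member, was higher on the same side, and reads may have been divided between these copies.

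Ifi202b, an interferon-inducible gene that C57BL/6 mice are known to express little or not at all, had 8.65 FPKM in the labelled-deleted imatinib library and was listed at 0 in both imatinib libraries. It was at 11.7 FPKM in the labelled-deleted untreated library, against 0 and 0.0188 FPKM in the untreated libraries. Tpsab1, a mast cell tryptase gene whose product C57BL/6 mice are known to lack, had 2.74 FPKM in the labelled-deleted imatinib library, against 0.256 and 0.341 FPKM with imatinib. It thus stood on the other side from its neighbour Tpsb2. All samples are labelled C57BL/6, and a part of strain background in the differences was not tested.

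Cav1, the coat protein of caveolae, had 10.9 FPKM in the labelled-deleted imatinib library, against 0.519 and 0.737 FPKM with imatinib, and its partner Cav2 was called higher (difference 1.98). Ugt1a6b, a glucuronidation enzyme that shares exons with other genes of its locus, had 12.999 FPKM against 0.828 and 0.943 FPKM. Both were also at 5 FPKM or more in the labelled-deleted untreated library, with 16.3 FPKM for Cav1 and 8.62 FPKM for Ugt1a6b.

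Among 178 solute carrier genes 12 were called higher and 5 lower, 9.55% of them, beside 3.11% of all members. Among 16 glutathione S-transferase genes Gstm1 and Gstm2 were called higher and 0 lower, 12.5% beside 1.76% of all members called higher, with a median difference of 0.11. These families were chosen after their values were seen. The 8 AKR1 genes, chosen likewise, were divided, Akr1b8 being called higher, and Akr1c12 and Akr1c18 lower, 37.5% of them in all.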
